A study of Mus musculus with 24 samples.

Results

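This report describes 10 heat shock protein and chaperone genes in the mouse hippocampus: Hspa1b, Hspa4, Hspa5, Hspa8, Hspb1, Hsp90aa1, Hsp90ab1, Hsph1, Dnajb1 and Hspd1. A gene was taken as measured where a row of the deposited table carried its symbol and no other. This held for 5 of the 10 (Hsph1, Hspa4, Hspa5, Hsp90aa1 and Dnajb1), each with 1 row among 23238 rows. Hspa1b, Hspa8, Hspb1, Hsp90ab1 and Hspd1 were not measured here. RNA came from the right hippocampus, on the side of the carotid ligation, of 10-day-old BALB-c mouse pups, and each of 24 pups gave 1 Affymetrix exon array. The labels give 4 groups of 6: injured pups with high-dose recombinant erythropoietin (injured EPO), sham pups with it (sham EPO), injured pups with none (injured none) and sham pups with none (sham none). Erythropoietin (EPO) is best known as the kidney hormone that stimulates red cell production, and neither its dose nor its timing is stated in the labels.

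The groups are named as each sample's characteristics label them. The titles can also be read with the first word as the treatment and the letter after it as the injury. That reading exchanges the groups called sham EPO and injured none and leaves the other groups and the interaction of injury and EPO as they are. No measurement used here settles the reading, so each direction below is that of the groups as labelled.

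Heat shock proteins are chaperones, which bind unfolded proteins, keep them from clumping and help them fold. Hsp70 proteins work in a cycle driven by ATP: J-domain proteins such as Dnajb1 bring them their clients, and nucleotide exchange factors such as Hsph1 and Hspa4 reset them. Hspa5 (BiP) is the Hsp70 of the endoplasmic reticulum, and Hsp90aa1 is the stress-inducible cytosolic Hsp90. Cytosolic chaperone genes are known targets of the heat shock factor Hsf1, and those of the endoplasmic reticulum are known targets of the unfolded protein response.

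Promoter windows of 300 bases (250 before to 50 after the gene's start) are shown for 5 genes on which the results turn or which are named above, taken from RefSeq on build GRCm38.p6. The windows of Hsph1, Hspb8 and Bag3 are shown for the letters of paired heat shock elements, and those of Hspa5 and Creld2 for the letters of the ER stress element. Capitals mark every match, on either strand. The Hsph1 window is chr5:149636287-149636586 on the minus strand, the first of 2 overlapping windows, the Hspb8 window chr5:116422815-116423114 on the minus strand, and the Bag3 window chr7:128523333-128523632 on the plus strand. The Hspa5 window is chr2:34771840-34772139 and the Creld2 window chr15:88819396-88819695, both on the plus strand.
Hsph1: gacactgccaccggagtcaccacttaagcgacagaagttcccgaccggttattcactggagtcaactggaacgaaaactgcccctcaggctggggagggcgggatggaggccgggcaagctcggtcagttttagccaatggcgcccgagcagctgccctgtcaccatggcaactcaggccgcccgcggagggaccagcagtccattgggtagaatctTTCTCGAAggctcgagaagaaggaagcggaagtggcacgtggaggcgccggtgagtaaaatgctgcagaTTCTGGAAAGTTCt
Hspb8: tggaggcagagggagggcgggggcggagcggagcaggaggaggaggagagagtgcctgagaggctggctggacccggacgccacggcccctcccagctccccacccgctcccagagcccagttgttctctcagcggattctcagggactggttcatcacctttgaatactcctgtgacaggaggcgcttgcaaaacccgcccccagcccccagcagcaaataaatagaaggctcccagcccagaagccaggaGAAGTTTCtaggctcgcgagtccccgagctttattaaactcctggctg
Bag3: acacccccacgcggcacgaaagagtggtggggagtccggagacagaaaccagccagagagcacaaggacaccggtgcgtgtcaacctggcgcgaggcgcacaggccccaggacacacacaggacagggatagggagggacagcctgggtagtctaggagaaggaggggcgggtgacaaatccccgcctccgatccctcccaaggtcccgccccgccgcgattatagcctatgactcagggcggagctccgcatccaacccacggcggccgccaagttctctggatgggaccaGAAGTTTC
Hspa5: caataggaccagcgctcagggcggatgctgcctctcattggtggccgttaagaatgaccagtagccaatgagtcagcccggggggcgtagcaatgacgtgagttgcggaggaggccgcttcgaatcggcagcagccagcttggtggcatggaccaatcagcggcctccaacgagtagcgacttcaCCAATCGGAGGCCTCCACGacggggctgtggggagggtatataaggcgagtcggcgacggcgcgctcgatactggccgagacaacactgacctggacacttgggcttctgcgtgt
Creld2: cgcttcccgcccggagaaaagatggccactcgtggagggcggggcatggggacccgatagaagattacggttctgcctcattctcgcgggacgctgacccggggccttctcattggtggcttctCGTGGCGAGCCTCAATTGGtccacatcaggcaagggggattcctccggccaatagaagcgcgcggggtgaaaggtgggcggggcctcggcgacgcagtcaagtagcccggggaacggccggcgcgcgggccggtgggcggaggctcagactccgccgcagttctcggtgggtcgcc

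The letters searched for the heat shock element were GAANNTTC and TTCNNGAA, on both strands, which overlap where 3 units follow each other. Of all 32851 windows 7.86% held the first, 8.52% the second, 15.1% either and 0.603% a run of 3 units in alternating direction. Hsph1 held TTCNNGAA 33 to 26 bases before the start and a run of 3 units 37 to 49 bases after it. The Hspb8 and Bag3 windows each held GAANNTTC after the start. The ER stress element was searched as CCAAT, 9 bases and CCACG, which 0.119% of all windows held. Hspa5 held it 65 to 47 bases before the start and Creld2, on the opposite strand, 126 to 108 bases before it. Of the 10 chosen genes 7 had a window, and neither Hspa4 nor Dnajb1 held any of these letters. Every printed window holds a match, but other genes held the same letters. Of 12 endoplasmic reticulum folding genes with a window 6 held the ER stress element. Besides Creld2 these were Dnajc3, which was not measured, and Calr, Canx, Hsp90b1 and Pdia6. Those last genes were not called in sham EPO against sham none (calls are defined below). Heat shock element letters were also held by genes called higher there, Hspb6 and Cct5 among them, and by Dnaja4, called lower there. Dnaja1, Chordc1 and Fkbp4 held them too and were not called there. These are examples, not every gene with the letters. A match describes these letters only.

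The table holds log2 values made by the authors with RMA, in which a difference of 1 is a doubling. The median per array lay between 5.05 and 5.43, and pairs of arrays correlated at 0.952 to 0.993. The medians were 5.30 to 5.43 in sham EPO arrays and 5.12 to 5.25 in sham none arrays, without overlap. They were 5.05 to 5.37 in injured EPO arrays and 5.18 to 5.33 in injured none arrays. Injured EPO replicate 3 had the lowest median of the 24 arrays. Each title also holds 1 of 7 short codes that no label explains. The code served as a block in alternative fits, and 11 arrays share the code 3D. A row was called where limma's moderated test gave an adjusted p (Benjamini-Hochberg over all rows) under 0.05. Each p rests on the spread between arrays of 1 pup each. The tissue is a mixture of cells, so fewer cells of a type and less RNA per cell cannot be told apart.

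Hsph1, the Hsp110 protein that acts as an exchange factor for Hsp70, was lower in sham EPO arrays than in those of every other group on average. Its log2 value had a lowest, median and highest of 9.66, 10.30 and 10.72 in injured EPO arrays and of 9.26, 9.59 and 9.80 in sham EPO arrays. The same 3 values were 9.98, 10.15 and 10.23 in injured none arrays and 9.77, 10.07 and 10.46 in sham none arrays. All 6 sham EPO arrays lay below every injured none array, and 5 of 6 lay below every sham none array. In injured EPO, 5 of 6 arrays lay above every sham EPO array, and the remaining one was replicate 3, at 9.66.

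**Figure D1:**
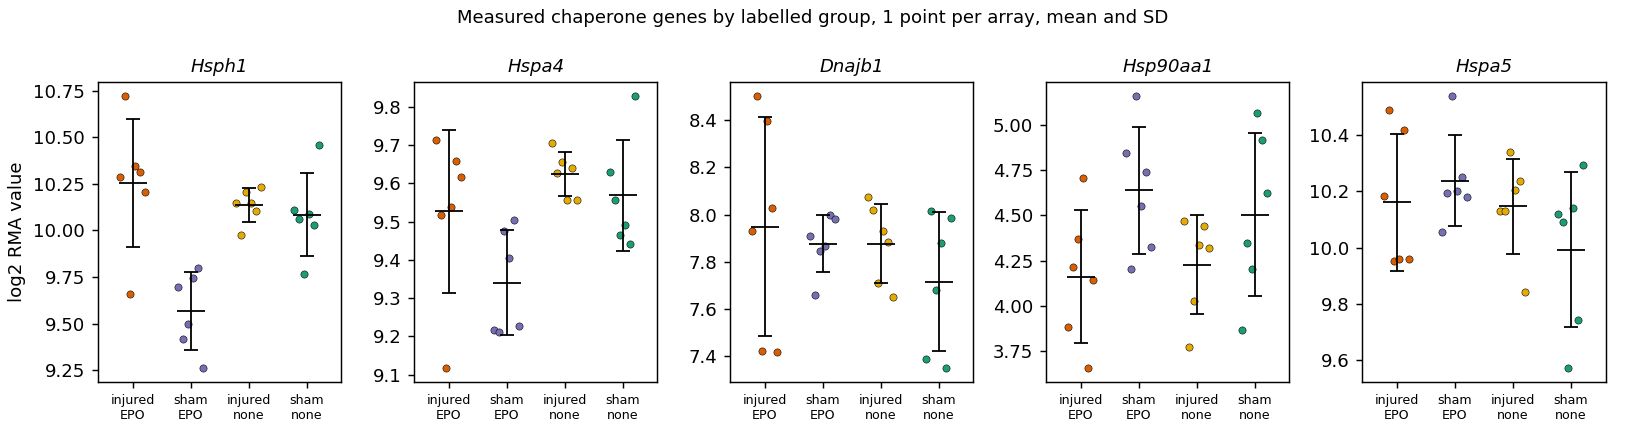
Log2 RMA values of the 5 measured genes in each labelled group, with 1 point per array (n = 6 per group) and bars for the mean and SD. Sham EPO arrays are low for Hsph1, and the groups of Dnajb1, Hsp90aa1 and Hspa5 overlap.

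In sham EPO Hsph1 averaged 9.57 ± 0.21, against 10.09 ± 0.22 in sham none (SD, n = 6 each), so that it fell by 0.52 ± 0.13 (log2 difference ± SE), to 0.699 of the sham none level (limma, adjusted p = 0.00663). In injured EPO it averaged 10.26 ± 0.34, against 9.57 ± 0.21 in sham EPO, and rose by 0.69 ± 0.13, 1.61-fold (adjusted p = 0.000851). Against injured none, at 10.14 ± 0.09, sham EPO fell by 0.57 ± 0.13 (adjusted p = 0.00301). The difference between sham EPO and sham none was -0.29 within code 3D (2 arrays against 2), -0.29 within code 3E and -0.77 within code 3F (1 against 1 each). With the code as a fixed block it was -0.42 with an adjusted p of 0.0773, and the call was lost. Within code 3D alone the calls were lost in all 3 comparisons, at adjusted p = 0.694, 0.319 and 0.24 in the order given, and the differences were -0.29, 0.49 and -0.49.

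**Figure D2:**
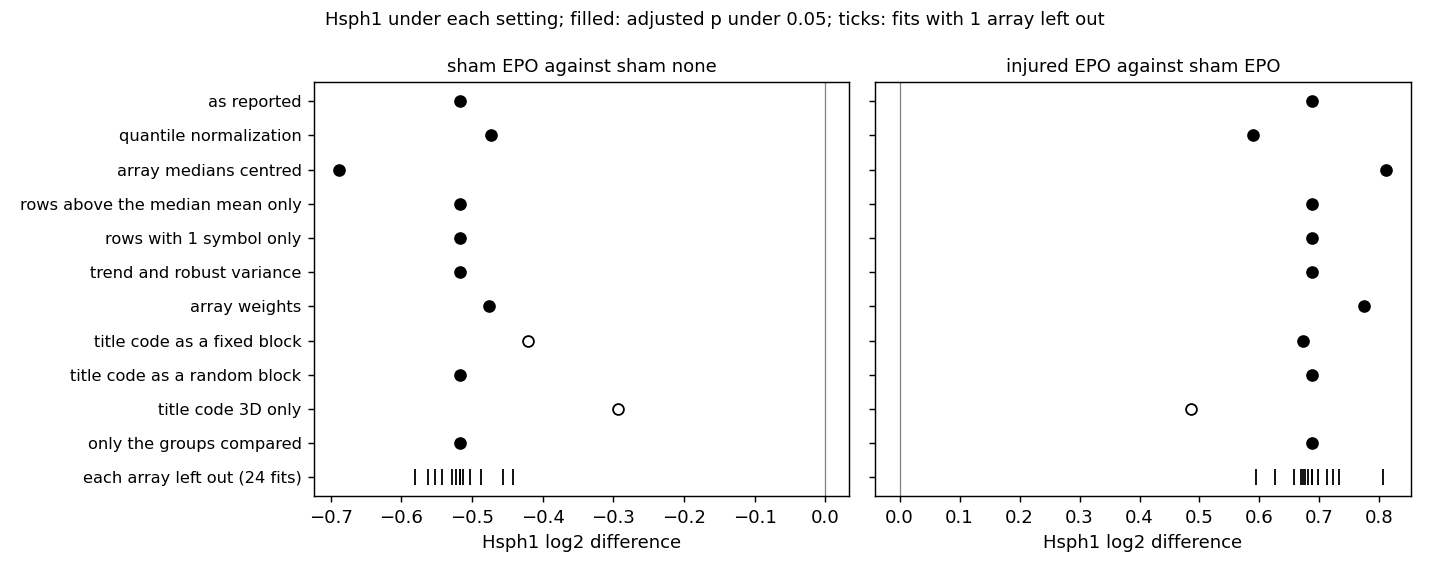
Hsph1 log2 difference under each setting, for sham EPO against sham none (left) and injured EPO against sham EPO (right), with filled points where the adjusted p was under 0.05 and ticks for the 24 fits that each leave out 1 array. The sign is the same under every setting shown, while a fixed block for the title code ended the call on the left, and code 3D alone ended it in both panels.

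The interaction of injury and EPO for Hsph1, the effect of EPO in injured pups minus that in sham pups, was 0.64 ± 0.19 (adjusted p = 0.0405). It was lost in 16 of the 24 fits that left out 1 array, with values from 0.54 to 0.76 and adjusted p up to 0.0697. The fits that kept it were those without injured EPO replicates 3 and 4, sham EPO replicates 1, 4 and 5, injured none replicates 3 and 6 and sham none replicate 3. The difference between injured EPO and injured none was 0.12 (95% interval -0.16 to 0.40) and that between injured none and sham none 0.05 (-0.23 to 0.33), and neither was called.

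Hspa4, an Hsp110 relative of the same exchange factor family, was lower in sham EPO arrays than in injured none arrays. Its lowest, median and highest values were 9.12, 9.58 and 9.71 in injured EPO arrays and 9.21, 9.32 and 9.50 in sham EPO arrays. They were 9.56, 9.63 and 9.70 in injured none arrays and 9.44, 9.52 and 9.83 in sham none arrays. Every sham EPO array lay below every injured none array, and injured EPO replicate 3, at 9.12, was the lowest array of all. The difference between sham EPO and injured none was -0.28 ± 0.09 (limma, adjusted p = 0.0299). The call was lost with quantile normalization (-0.12, adjusted p = 0.211), with the code as a fixed block (adjusted p = 0.0747), within code 3D (-0.18, adjusted p = 0.672), and without any of sham EPO replicates 1, 2 or 6 or injured none replicates 1, 2 or 3.

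For Hspa4 the difference between sham EPO and sham none was -0.23 ± 0.09 (adjusted p = 0.0894), and that between injured EPO and sham EPO 0.19 ± 0.09 (adjusted p = 0.209). Neither was called with all arrays. Without injured EPO replicate 3 both were called, at -0.23 (adjusted p = 0.0299) and 0.27 (adjusted p = 0.0209). Both were also called with every array's median set equal, at -0.40 (adjusted p = 0.000678) and 0.31 (adjusted p = 0.00913).

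Dnajb1, the J-domain protein that brings clients to cytosolic Hsp70, passed the test in 0 of the 7 comparisons. Its lowest, median and highest values were 7.42, 7.98 and 8.50 in injured EPO arrays, 7.66, 7.89 and 7.9996 in sham EPO arrays, 7.65, 7.91 and 8.07 in injured none arrays and 7.35, 7.78 and 8.01 in sham none arrays. The groups overlapped, and the spread was widest in injured EPO (SD 0.46, against 0.12 in sham EPO). The difference between sham EPO and sham none was 0.16 (95% interval -0.18 to 0.50), and that between injured EPO and sham EPO 0.07 (-0.27 to 0.41).

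Hspa5, the endoplasmic reticulum Hsp70, also passed in 0 comparisons. Its lowest, median and highest values were 9.95, 10.07 and 10.49 in injured EPO arrays, 10.06, 10.20 and 10.54 in sham EPO arrays, 9.84, 10.17 and 10.34 in injured none arrays and 9.57, 10.11 and 10.30 in sham none arrays. The groups overlapped. The difference between sham EPO and sham none was 0.24 (95% interval -0.02 to 0.50, adjusted p = 0.202).

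Hsp90aa1 lay below the median of its own array on 24 of 24 arrays, so its row carries little signal. Its lowest, median and highest values were 3.66, 4.18 and 4.70 in injured EPO arrays, 4.20, 4.64 and 5.16 in sham EPO arrays, 3.77, 4.33 and 4.47 in injured none arrays and 3.87, 4.49 and 5.06 in sham none arrays. The groups overlapped, and 0 comparisons passed. The largest of its differences in size was -0.48 (95% interval -0.89 to -0.06, adjusted p = 0.131), for injured EPO against sham EPO.

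**Figure D3:**
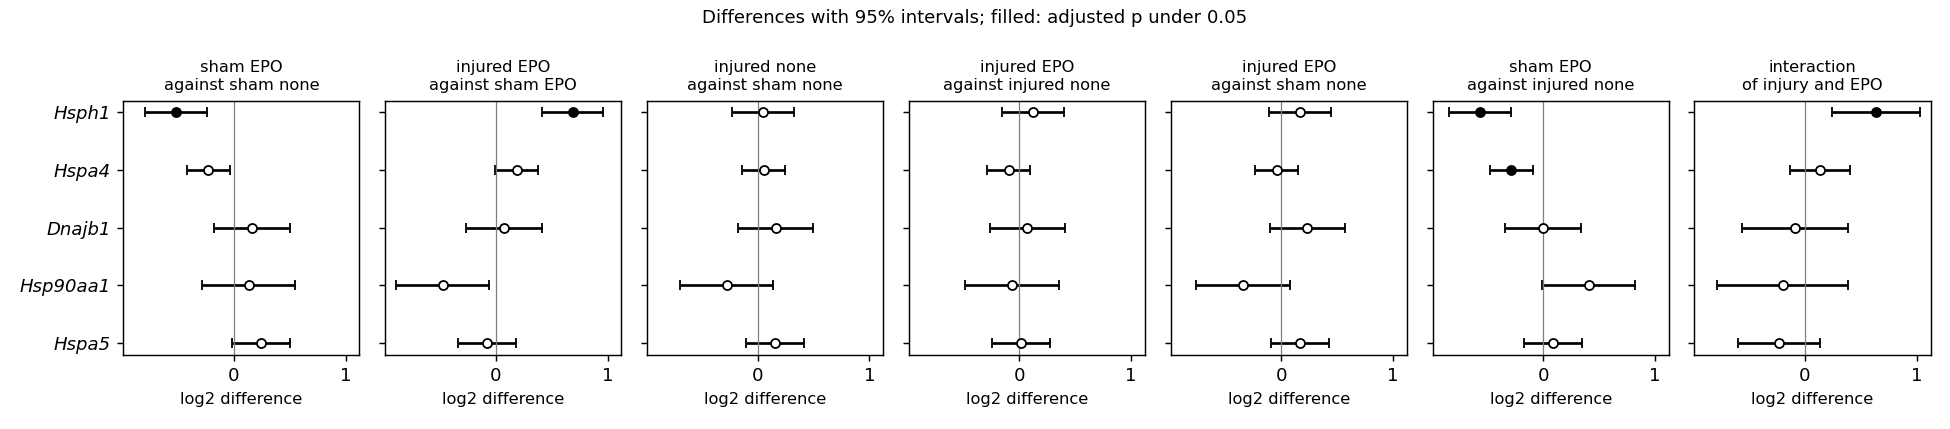
Log2 differences of the 5 measured genes with 95% intervals in 7 comparisons (the first-named group minus the second), with filled points where the adjusted p was under 0.05. Hsph1 is called in 4 comparisons and Hspa4 in 1.

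The counts of called genes stand here beside the share of all rows called, and a count of 1 among 5 genes sets no share apart. In sham EPO against sham none 1 of the 5 was called, Hsph1, which was lower, where 11.5% of all rows were called higher and 7.60% lower. In injured EPO against sham EPO 1 of 5 was called, where 6.05% of rows were called higher and 7.83% lower. In sham EPO against injured none 2 of 5 were called lower, where 8.28% of rows were called higher and 11.8% lower. For the interaction 1 of 5 was called higher, where 1.55% of rows were called higher and 5.75% lower.
These shares depend on scaling, and on which rows are fitted (rows with 1 symbol are given with the lists below). Of the rows called in sham EPO against sham none 60.3% were higher as deposited, 49.2% after quantile normalization and 29.5% with array medians centred, which moved the median difference of all rows to -0.15, against 0.03 as deposited. In injured EPO against sham EPO the shares were 43.6%, 48.7% and 69%. In sham EPO against injured none they were 41.2%, 47.2% and 24.8%, and for the interaction 21.2%, 42.7% and 57%.

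In the comparisons of injured EPO with injured none, injured EPO with sham none and injured none with sham none, limma called 0 of the 5, and 0 of all rows (0%). At an unadjusted p under 0.05 they had 1892, 1374 and 1803 of 23238 rows.

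Deviations from the group means were compared over the 24 arrays, which share their array scaling, as a description. Arrays may also share batches, which no label names. Among the 5 genes Hspa4 and Hsph1 had a Pearson r of 0.66, a Spearman rho of 0.48 and an r of 0.47 without injured EPO replicate 3. Hspa4 and Hspa5 had 0.53, 0.52 and 0.52, so which pair was most alike depended on that array and on the measure. Hspa4 and Hsp90aa1 had an r of -0.11. Among rows with 1 symbol, those most like Hsph1 were Dbt (r = 0.86, rho = 0.69), Gpt2 (0.85 and 0.76) and Brap (0.84 and 0.63). Without the 2 arrays farthest from the median these r were 0.76, 0.72 and 0.64. Those most like Hspa4 were Cpsf6 (r = 0.95), Slc35a3 (0.92) and Plaa (0.91), and those most like Dnajb1 were Taf12, Tbl2 and Stx8 (0.88 each). For Hspa5 they were Ctnnbl1 (0.81), Pdia4, an endoplasmic reticulum disulfide isomerase (0.80), and Rbm34 (0.79), and for Hsp90aa1 Olfr1290 (0.77), Tfeb (0.75) and Cyp2d9 (0.70).

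The chaperone network around these genes was followed in 9 lists. With the 10 chosen genes they hold 117 genes, of which 100 were measured. In sham EPO against sham none 24 of the 100 were called higher and 9 lower, with a median difference of 0.15, where 11.5% of all rows were called higher and 7.60% lower, with a median of 0.03. In injured EPO against sham EPO 9 were called higher and 12 lower, where 6.05% and 7.83% of all rows were. Against injured none 14 were called higher in sham EPO and 14 lower, with a median of 0.01, where 8.28% and 11.8% of all rows were. These 3 comparisons share the sham EPO arrays. All rows include rows without a symbol, while each measured gene has a row with 1 symbol. With only the 14939 rows of 1 symbol fitted, 2620 were called higher and 1707 lower in sham EPO against sham none. In injured EPO against sham EPO 1423 and 1715 were, and in sham EPO against injured none 1757 and 2652. The list counts and medians here and below are as deposited, without centring. The list counts are to be read against these shares and counts, and nothing particular to a list is claimed from them.

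**Figure D4:**
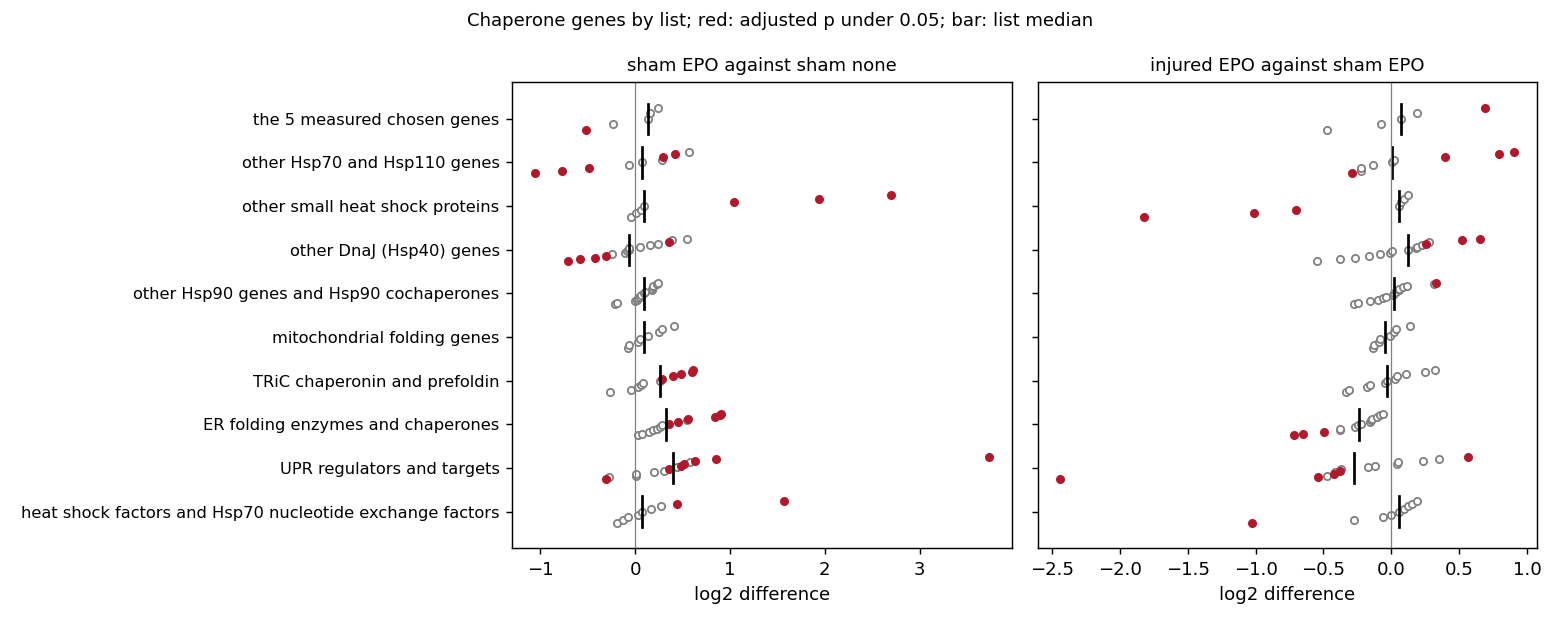
Log2 differences of the measured genes of each list in sham EPO against sham none (left) and injured EPO against sham EPO (right), with red points where the adjusted p was under 0.05 and a bar at the list's median. On the left panel Atf3 lies farthest to the right. Bag3 and the small heat shock proteins Hspb8, Hspb6 and Cryab also lie far to the right, and Hspa12a and Hspa4l far to the left.

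Small heat shock proteins hold unfolded proteins without using ATP. Of the 7 measured, 3 were called higher and 0 lower in sham EPO than in sham none, with a list median of 0.09. Among all rows 11.5% were called higher there and 7.60% lower. Hspb8, which works with the exchange factor Bag3 to send damaged proteins to autophagy, had a lowest, median and highest of 5.45, 6.16 and 7.81 in injured EPO arrays and of 7.94, 8.12 and 8.46 in sham EPO arrays. It had 5.25, 5.87 and 6.62 in injured none arrays and 5.14, 5.36 and 5.92 in sham none arrays. All 6 sham EPO arrays lay above every array of the other groups. The difference between sham EPO and sham none was 2.70 ± 0.30, 6.49-fold (limma, adjusted p = 4.79e-07), and within code 3D it was 2.64 (adjusted p = 0.0429). Injured EPO fell by 1.82 ± 0.30 against sham EPO (adjusted p = 0.000145), and the interaction was -2.36 ± 0.42 (adjusted p = 0.00108).

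Bag3 had a lowest, median and highest of 5.68, 6.24 and 6.70 in injured EPO arrays, 7.07, 7.19 and 7.54 in sham EPO arrays, 5.18, 5.85 and 6.20 in injured none arrays and 5.35, 5.66 and 5.94 in sham none arrays. As with Hspb8, all 6 sham EPO arrays lay above every other array. The difference between sham EPO and sham none was 1.57 ± 0.18 (adjusted p = 9.99e-07, and 0.0387 within code 3D), and that between injured EPO and sham EPO -1.02 ± 0.18 (adjusted p = 0.00038). Of the 9 measured heat shock factors and exchange factors, Bag3 and Bag1 (0.44 ± 0.15) were called higher in sham EPO than in sham none and 0 lower, with a median of 0.08. Among all rows 11.5% were called higher there and 7.60% lower. The Bag1 call was lost with array medians centred, with the code as a fixed block and without any of 8 arrays (sham EPO replicates 3, 5 and 6 and sham none replicates 1, 3, 4, 5 and 6).

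Hspb6 was 3.84-fold higher in sham EPO (1.94 ± 0.25, adjusted p = 4.29e-06) and Cryab, alpha B-crystallin, 2.05-fold higher (1.04 ± 0.20, adjusted p = 0.000524), than in sham none. Their sham EPO arrays, at 7.70 to 8.69 for Hspb6 and 9.28 to 9.76 for Cryab, lay above every sham none array, at 5.86 to 6.46 and 8.03 to 8.65. Injured EPO arrays spread widely, from 6.39 to 8.50 for Hspb6 and from 8.08 to 9.75 for Cryab, and overlapped the sham EPO arrays. Both were called lower in injured EPO than in sham EPO, with differences of -1.01 ± 0.25 for Hspb6 and -0.70 ± 0.20 for Cryab (adjusted p = 0.00759 and 0.0212). The call of Cryab in that comparison was lost with the code as a fixed block and without any of injured EPO replicates 1, 3 or 6 or sham EPO replicate 1.

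**Figure D5:**
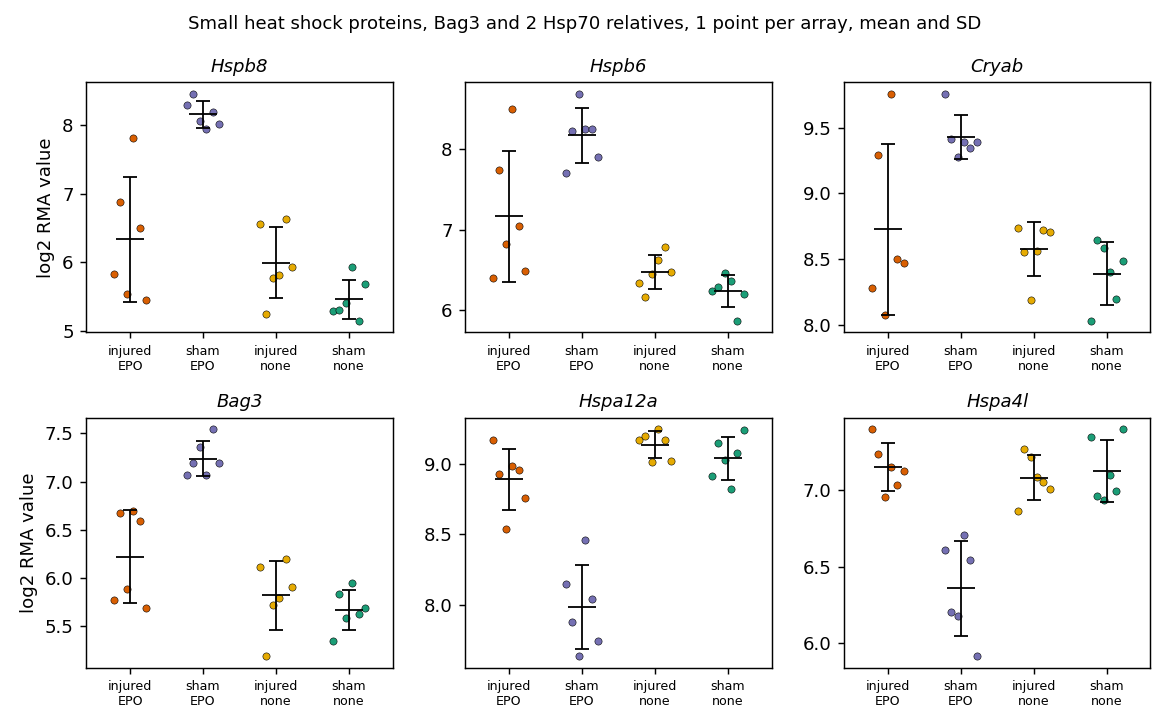
Log2 RMA values of Hspb8, Hspb6, Cryab, Bag3, Hspa12a and Hspa4l in each labelled group, with 1 point per array (n = 6 per group) and bars for the mean and SD. Sham EPO arrays are the highest for Hspb8 and Bag3 and the lowest for Hspa12a and Hspa4l.

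Of the other Hsp70 and Hsp110 genes 9 were measured, and in sham EPO against sham none 3 were called lower and 2 higher, with a median of 0.07. Among all rows 11.5% were called higher there and 7.60% lower. Hspa12a, an Hsp70 relative, had 8.54, 8.94 and 9.17 (lowest, median and highest) in injured EPO arrays, 7.63, 7.96 and 8.46 in sham EPO arrays, 9.01, 9.17 and 9.25 in injured none arrays and 8.82, 9.05 and 9.24 in sham none arrays. Hspa4l, a paralog of Hspa4, had 6.96, 7.14 and 7.40 in injured EPO arrays, 5.91, 6.37 and 6.71 in sham EPO arrays, 6.87, 7.07 and 7.27 in injured none arrays and 6.93, 7.05 and 7.40 in sham none arrays. For both genes all sham EPO arrays lay below every other array. Sham EPO fell against sham none by 1.06 ± 0.12 for Hspa12a (adjusted p = 6.13e-07), by 0.77 ± 0.12 for Hspa4l (adjusted p = 5.93e-05) and by 0.48 ± 0.12 for Hspa2 (adjusted p = 0.00561). Hspa14 (0.42) and Hspa12b (0.29) were called higher, and both calls were lost with array medians centred, and with the code as a fixed block. That of Hspa14 was also lost without any of sham EPO replicates 3, 5 or 6 or sham none replicates 1, 3 or 4, and that of Hspa12b with quantile normalization and without any of sham EPO replicates 3, 4 or 6 or sham none replicates 2, 3, 5 or 6.

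Among 15 measured DnaJ genes, the cochaperones of Hsp70, 4 were called lower and 1 higher in sham EPO than in sham none, with a median of -0.07, where 11.5% of all rows were called higher and 7.60% lower. The 1 higher gene was Dnajb11 (0.36 ± 0.12, adjusted p = 0.0391), whose call was lost with array medians centred, with the code as a fixed block, within code 3D and without any of sham EPO replicates 2, 3, 5 or 6 or sham none replicates 1, 2, 3 or 5. Dnajb5 fell by 0.71 ± 0.10 (adjusted p = 1.68e-05) and Dnajc6, the auxilin of clathrin uncoating, by 0.58 ± 0.10 (adjusted p = 0.000209). Dnajc5, the synaptic vesicle protein CSP alpha, fell by 0.31 ± 0.08 and Dnaja4 by 0.43 ± 0.14. Against sham EPO, injured EPO was higher for Dnajb5 (0.66 ± 0.10), Dnajc6 (0.52 ± 0.10) and Dnajc5 (0.26 ± 0.08). The Dnaja4 call, at an adjusted p of 0.0313, was lost with the code as a fixed block, when only the arrays of the 2 groups were fitted, and without any of sham EPO replicates 1, 2 or 6 or sham none replicates 2, 4 or 6.

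In the endoplasmic reticulum 6 of 14 measured folding genes were called higher and 0 lower in sham EPO than in sham none, with a median of 0.32, where 11.5% of all rows were called higher and 7.60% lower. Against injured none 4 of the 14 were called higher in sham EPO and 0 lower, where 8.28% of all rows were called higher and 11.8% lower. Hspa5 itself was called in neither. Creld2 had a lowest, median and highest of 6.16, 6.84 and 7.20 in injured EPO arrays, 7.23, 7.39 and 7.74 in sham EPO arrays, 6.50, 6.77 and 6.98 in injured none arrays and 6.28, 6.58 and 6.74 in sham none arrays. All 6 sham EPO arrays lay above every other array. Against sham none, sham EPO rose by 0.89 ± 0.15 for Creld2 (adjusted p = 0.000111), 0.91 ± 0.17 for Sdf2l1 (adjusted p = 0.000273), 0.84 ± 0.13 for the disulfide isomerase P4hb (adjusted p = 2.88e-05) and 0.56 ± 0.15 for Pdia4 (adjusted p = 0.00695). In injured EPO against sham EPO 3 of the 14 were called lower: Creld2 (-0.72 ± 0.15), Sdf2l1 (-0.65 ± 0.17) and P4hb (-0.49 ± 0.13). Among all rows 6.05% were called higher in that comparison and 7.83% lower.

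Of 14 measured regulators and targets of the unfolded protein response 6 were called higher and 1 lower in sham EPO than in sham none, with a median of 0.40, where 11.5% of all rows were called higher and 7.60% lower. The 1 lower gene, Sel1l (-0.31 ± 0.10, adjusted p = 0.0408), is named after its value was seen, and this lower call was lost in 8 of the 24 fits without 1 array. Against injured none 5 of the 14 were called higher in sham EPO and 2 lower, where 8.28% of all rows were called higher and 11.8% lower. Atf3, a stress-induced transcription factor, had a lowest, median and highest of 3.59, 4.06 and 6.74 in injured EPO arrays, 6.43, 7.27 and 7.71 in sham EPO arrays, 3.29, 3.31 and 3.50 in injured none arrays and 3.25, 3.46 and 3.67 in sham none arrays. Only injured EPO overlapped sham EPO, and 5 of its 6 arrays lay below every sham EPO array. In injured none and sham none arrays Atf3 lay below every array median. Its row carries little signal there, which limits the size of its differences from those groups. Against sham none, sham EPO rose by 3.73 ± 0.41 for Atf3 (adjusted p = 4.31e-07), by 0.85 ± 0.17 for Ddit3 (CHOP, adjusted p = 0.000718), by 0.51 ± 0.12 for Xbp1 and by 0.49 ± 0.11 for Atf4. In injured EPO against sham EPO 4 of the 14 were called lower, Atf3 (-2.44 ± 0.41), Ern1 (-0.54 ± 0.16), Atf4 (-0.42 ± 0.11) and Xbp1 (-0.38 ± 0.12), and 1 higher, Asns (0.57 ± 0.12), the asparagine synthetase gene. With 1 array left out the count of lower calls ran from 2 to 6. Among all rows 6.05% were called higher in injured EPO than in sham EPO and 7.83% lower. The call of Xbp1 was lost with centring, with array weights, with the fixed block and without any of injured EPO replicates 1, 3 or 6 or sham EPO replicates 1, 2 or 3. That of Ern1 was lost without any of injured EPO replicates 3 or 6 or sham EPO replicates 3 or 4.

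The TRiC chaperonin, which folds actin and tubulin, and its partner prefoldin had 5 of 11 measured subunits called higher and 0 lower in sham EPO than in sham none, with a median of 0.26, where 11.5% of all rows were called higher and 7.60% lower. Set against injured none, sham EPO had 0 of the 11 called by limma (2 at an unadjusted p under 0.05), with a median of 0.08. Among all rows 8.28% were called higher in sham EPO than in injured none and 11.8% lower. Cct3 rose by 0.48 ± 0.14 (adjusted p = 0.0145), Cct4 by 0.60 ± 0.19 (adjusted p = 0.0253), Cct5 by 0.40 ± 0.12 (adjusted p = 0.0219) and Pfdn1 by 0.61 ± 0.19 (adjusted p = 0.0258). All 4 calls were lost with the code as a fixed block, those of Cct4, Cct5 and Pfdn1 also without sham none replicate 1 or 5, those of Cct4 and Cct5 without sham EPO replicate 3, that of Cct4 without sham EPO replicate 6 and that of Pfdn1 without sham none replicate 6. Those of Cct5 and Pfdn1 were lost with array medians centred too. Of 15 measured Hsp90 genes and cochaperones and 8 mitochondrial folding genes, 0 were called by limma in sham EPO against sham none (2 and 3 at an unadjusted p under 0.05), with medians of 0.10 and 0.09.

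Several lists of cell type markers moved with the same groups. In sham EPO against sham none, the comparison of the marker calls below, 11.5% of all rows were called higher and 7.60% lower. All 10 reactive astrocyte markers were called higher in sham EPO than in sham none, and their mean log2 level per array was 5.81 to 7.64 in injured EPO, 8.61 to 9.28 in sham EPO, 5.98 to 6.33 in injured none and 5.66 to 6.05 in sham none. All 4 measured phagocyte markers were called higher, with 4.49 to 6.75 in injured EPO, 7.26 to 7.68 in sham EPO, 4.49 to 4.71 in injured none and 4.43 to 4.60 in sham none. The levels in injured none and sham none lie below every array median, so on average the phagocyte rows carry little signal there. All 7 measured neuronal markers were called lower, with 10.13 to 10.56 in injured EPO, 9.41 to 9.83 in sham EPO, 10.49 to 10.69 in injured none and 10.41 to 10.74 in sham none. Endothelial markers were called higher in 6 of 7, and leukocyte markers in 4 of 7. The mean level of the leukocyte list was 3.25 to 4.16 in sham EPO and 3.03 to 3.36 in sham none. That lies below every array median, so on average these leukocyte rows carry little signal. Of the 8 markers of hippocampal pyramidal and granule neurons 6 were called lower. Astrocyte markers were called higher in 2 of 4, oligodendrocyte lineage markers in 2 of 6 and microglial markers in 1 of 6, with 3 of the 6 microglial markers lower. Of 5 choroid plexus and 3 erythroid markers 0 were called in sham EPO against sham none. Their part in the chaperone differences was not tested. The neuronal list and the list of hippocampal pyramidal and granule neurons (6.92 to 8.77 over all arrays) lay above every array median.

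Within code 3D alone, 7 of 30 named calls in sham EPO against sham none were kept (Hspb8, Hspb6, Bag3, Dnajb5, P4hb, Atf3 and Ddit3), and 0 of 21 in injured EPO against sham EPO. In the second comparison 11 of the 21 calls were also lost when the fit held only the arrays of the 2 groups: Hspa2, Hspa12b, Hspb6, Cryab, Dnajc5, Fkbp8, Sdf2l1, P4hb, Xbp1, Ern1 and Atf4. That of Dnajc5 was lost with quantile normalization, with the fixed block and without any of injured EPO replicates 1, 2, 4 or 6 or sham EPO replicates 3, 5 or 6 too.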

How the data were processed

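Total RNA of the right hippocampus was hybridised to 24 arrays. The authors deposited log2 values, for which the submitters' processing notes name Affymetrix Expression Console and RMA, with no version. Rows were named from the platform annotation. Of 23238 rows 14939 carry 1 symbol, 989 several and 7310 none, and only rows with 1 symbol were named.

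A linear model with a mean for each of the 4 groups was fitted to every row with limma 3.58.1 (R 4.3.3), using all 24 arrays (residual df 20) and 7 contrasts. P values were adjusted over all rows (Benjamini-Hochberg, threshold 0.05), and intervals are 95%. The fit was tested on simulated data. The array number limits the precision. The 10 genes, the gene lists and the tests were chosen with earlier results of these data known. The text names the 10 genes, per list and comparison up to 4 called genes with the largest difference (not all written out), and per gene the 3 most similar rows. Replicates are numbered in accession order and pair no mice. Alternatives covered normalization, dim rows, variance model, the title code, array weights, which groups were fitted, each array left out and the threshold. Promoter windows are RefSeq's.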

Additional observations from a re-analysis of the deposited data

Results flagged for a closer look

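The effect of EPO differed between injured and sham pups (the interaction, EPO effect in injured minus that in sham, limma) for 13 of the named genes, which were chosen for their size among called genes. Of all 100 measured chaperone genes 5 were called higher and 8 lower, where 1.55% and 5.75% of all rows were. With only the 14939 rows of 1 symbol fitted, 426 rows were called higher and 1450 lower. The interaction was positive for Hsph1 (0.64), Hspa12a (0.81), Hspa4l (0.84), Dnajb5 (0.48) and Dnajc6 (0.53). It was negative for Hspb8 (-2.36), Hspb6 (-1.24), Bag3 (-1.17), Sdf2l1 (-0.91), Creld2 (-0.93), P4hb (-0.77), Atf4 (-0.60) and Atf3 (-2.33). The Atf3 row carries little signal in injured none and sham none arrays. The adjusted p ran from 0.00108 (Hspb8) to 0.044 (Dnajb5). The call was lost in 16 of 24 fits without 1 array for Hsph1, in 18 for Dnajb5, in 10 for Hspb6 (injured EPO replicate 3 among those left out, adjusted p = 0.0559) and in 2 for Dnajc6 (without injured EPO replicate 1 or 6). With the code as a fixed block the calls of Hsph1, Hspb6, Dnajc6, Sdf2l1, Atf3 and Atf4 were lost, that of Atf4 with array medians centred too, and within code 3D all 13 were.

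In 9 of 152 groups 1 array stood apart from the other 5, where chance flags about 1 group in 20. Injured EPO replicate 3 was the lowest array of its group for Hspa4 (9.12), Dnajc6 (9.80) and Dnajc5 (9.72). Sham none replicate 6 was the highest of its group for Hspa2 (7.20). Sham EPO replicate 1 was the highest for Cryab (9.76), sham EPO replicate 3 the lowest for Dnajc6 (9.02) and sham EPO replicate 5 the lowest for Ddit3 (5.50). Injured none replicate 3 was the lowest for Cryab (8.19) and the highest for Atf3 (3.50), whose row carries little signal in that group.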

How the results depend on the processing

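Of 1248 differences of the 5 measured genes under alternatives 1210 kept their side of the threshold, 33 lost the call and 5 gained it. Most of the 1248 were uncalled from the start and could not lose a call, so the 1210 say little about the calls. At the reported threshold Hsph1 lost its interaction call in 18 of 34 alternatives. It lost its call in sham EPO against sham none in 2 of 35. Its calls in injured EPO against sham EPO and in sham EPO against injured none were each lost in 1 of 35. Hspa4 lost its only call in 9 of 35. Averaging a gene's rows could change nothing, as each gene has 1 row. None of the called differences changed sign, and 40 uncalled ones did. In sham EPO against sham none, where 1 gene was called, 2 were called with array medians centred, 0 with the title code as a fixed block, 0 within code 3D and 1 to 2 with 1 array left out (2 without injured EPO replicate 3). In injured EPO against sham EPO, where 1 was called, the count was 2 with centring, 2 with array weights, 0 within code 3D and 1 to 2 with 1 array left out (2 without injured EPO replicate 3). In sham EPO against injured none, where 2 were called, it was 1 at a threshold of 0.01, 1 with quantile normalization, 1 with the fixed block, 0 within code 3D and 1 to 2 with 1 array left out. For the interaction, where 1 was called, it was 0 at a threshold of 0.01, 0 with the fixed block, 0 within code 3D and 0 to 1 with 1 array left out. Code 3D holds 11 arrays, so that fit has fewer samples. The causes of the other changes were not tested. Over all rows, the fixed block called 902 rows for the interaction, against 1696 without it. Centring called 6076 rows in sham EPO against sham none, against 4445 as deposited. The Hsp90aa1 row is limited by its low signal. No paired analysis was possible because the replicate numbers follow accession order and pair no mice.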
